A study of Mus musculus with 2 samples.

Results

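The 8 genes described here are Rpe65, Lrat, Rdh5, Rdh10, Rdh11, Rlbp1, Rgr and Rrh, the enzymes, retinoid carrier and opsins by which the retinal pigment epithelium (RPE) renews visual chromophore. They were taken by symbol from the 27998 genes of the deposited matrices, and all 8 were listed. RPE cells came from 2 untreated male C57BL/6J mice, R1 and R2, at postnatal day 36 (4 to 5 weeks by the labels), with both eyes of a mouse pooled, trypsin and mechanical dissociation, and sorting of live cells on calcein-AM and DAPI. Single cells were captured in droplets, and each messenger RNA molecule was counted once near its 3′ end by a unique molecular identifier (UMI), so a longer transcript was not counted more often. There was 1 condition and 1 library per mouse, so the mice are the replicates (n = 2) and no treatment was compared.

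The matrices held 2844 cells with 26034378 UMIs in R1 and 2994 cells with 29732969 UMIs in R2. After cells under 500 genes or over 5% mitochondrially encoded (mt-) UMIs were left out, 2782 and 2966 cells remained. Of these, 2723 and 2947 cells held at least 5% of their UMIs as Ttr, the transcript of the retinol and thyroxine carrier transthyretin, and are called Ttr-high or RPE cells below. Ttr made up a median of 11.2% and 13.0% of their UMIs. The limit cut through few cells, since 12 and 4 cells lay between 5% and 6% and none lay between 4% and 5%. Among 8 other RPE markers, Slc16a8, Stra6, Trpm3, Otx2 and Ermn were detected in 82.6% to 99.9% of the Ttr-high cells, Mitf in 39.4% and 36.7%, and Best1 and Serpinf1 in under 1%. The summed markers of fibroblasts, microglia, endothelial cells, choroidal melanocytes, rods and cones were each at most 0.73 UMIs per 10000 in these cells. Markers of Müller glia, cells of the retina, were higher, at 11.8 and 11.3. Of these, 4 of 7 were found in each mouse, and no Ttr-high cell held 3 of them. The libraries shared 12 cell barcodes.

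In the visual cycle, the retinal chromophore that light has isomerised to the all-trans form returns to the RPE as all-trans retinol, LRAT stores it as retinyl ester, and RPE65 turns the ester into 11-cis retinol. RDH5, with RDH11 and RDH10 as further retinol dehydrogenases, oxidises this to 11-cis retinal, which CRALBP, the product of Rlbp1, binds and shields. RGR opsin and peropsin, the product of Rrh, are opsins of the RPE that bind all-trans retinal, and RGR takes part in light-driven formation of 11-cis retinoid.

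On GRCm38, Rpe65 (ENSMUSG00000028174) lies at chr3:159599175-159625321 on the plus strand, Lrat at chr3:82892579-82903973 and Rrh at chr3:129804408-129822587, both on the minus strand. Rdh10 lies at chr1:16105774-16133734 on the plus strand. On the minus strand are Rdh5 at chr10:128913593-128922888, Rdh11 at chr12:79174337-79192293, Rlbp1 at chr7:79374870-79387048 and Rgr at chr14:37034909-37048964. Exons of Rdh5 share bases with exons of Bloc1s1 on the same strand, so how reads of these genes were divided is uncertain.

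The sequences before the transcription start are shown for Rgr, Rdh5 and Rrh, which varied together across cells. They are also shown for Rpe65 and Lrat, whose correlation over all cells of a mouse was near 0. They are RefSeq sequence of GRCm38.p6, read 5′ to 3′ on the strand of the gene, within the 250 bases before the RefSeq start and cut where an annotated exon begins. Capitals mark TAATCC, the letters bound by OTX2 and CRX, CACGTG or CATGTG, E-box letters of the kind MITF binds, and TATAAA, on either strand. The windows are chr14:37049015-37049264 (Rgr), chr10:128919298-128919547 (Rdh5), chr3:129822588-129822755 (Rrh), chr3:159598931-159599174 (Rpe65) and chr3:82903975-82904224 (Lrat).
Rgr: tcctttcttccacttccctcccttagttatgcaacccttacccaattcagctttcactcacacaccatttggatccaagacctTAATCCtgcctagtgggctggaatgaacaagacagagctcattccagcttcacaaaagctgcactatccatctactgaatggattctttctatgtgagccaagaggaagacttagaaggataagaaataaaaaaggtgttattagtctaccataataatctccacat
Rdh5: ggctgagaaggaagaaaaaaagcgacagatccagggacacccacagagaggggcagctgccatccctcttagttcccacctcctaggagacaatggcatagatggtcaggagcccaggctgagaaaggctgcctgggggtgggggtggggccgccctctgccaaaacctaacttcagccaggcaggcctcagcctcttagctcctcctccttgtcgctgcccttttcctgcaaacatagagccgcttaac
Rrh: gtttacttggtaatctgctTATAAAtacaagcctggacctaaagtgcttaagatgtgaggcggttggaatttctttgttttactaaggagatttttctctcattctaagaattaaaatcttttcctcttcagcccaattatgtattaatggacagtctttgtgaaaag
Rpe65: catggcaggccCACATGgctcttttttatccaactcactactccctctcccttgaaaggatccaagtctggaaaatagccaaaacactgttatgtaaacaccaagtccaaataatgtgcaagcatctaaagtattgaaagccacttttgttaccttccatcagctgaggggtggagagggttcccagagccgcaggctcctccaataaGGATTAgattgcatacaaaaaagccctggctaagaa
Lrat: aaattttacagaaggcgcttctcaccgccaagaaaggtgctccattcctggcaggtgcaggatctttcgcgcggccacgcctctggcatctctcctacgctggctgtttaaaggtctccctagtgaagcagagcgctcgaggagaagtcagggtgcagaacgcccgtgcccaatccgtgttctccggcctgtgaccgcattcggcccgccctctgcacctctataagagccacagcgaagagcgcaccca

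TAATCC occurred 167 bases before the start of Rgr and 42 bases before that of Rpe65. CATGTG occurred 239 bases before the start of Rpe65. TATAAA lay 231 bases before the start of Rrh. Over 32851 windows of 250 bases before RefSeq starts, 6.25% held TAATCC, 6.02% CACGTG, 12.3% CATGTG and 12.4% TATAAA. None of the 4 motifs was found in the windows of Rdh5 and Lrat, and none was held by all of Rgr, Rdh5 and Rrh. The start used for Rdh5 lies inside the longer GENCODE gene, and 7 of the 8 genes had a window.

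The genes of the cycle were among the most abundant of the RPE, and Rgr, not Rpe65, was the leading transcript. The level of a gene is its mean UMIs per 10000 UMIs of a cell. Rgr stood at 188 in R1 and 235 in R2 (211 ± 33.2, SD, n = 2). Ranks among all genes were taken by UMIs summed over the RPE cells of a mouse. Rgr had rank 4 in both mice, of 15661 and 15438 genes with a UMI. Rdh5 followed with 81.5 and 89.1 (85.3 ± 5.41) at ranks 11 and 10. Rpe65, the isomerohydrolase, was at 47.4 and 50.7 (49.1 ± 2.33), rank 16 in each mouse. The carrier gene Rlbp1 was next to it, at 39.5 and 42.4 (40.9 ± 2.10) and rank 17.

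The other dehydrogenases and the esterifying enzyme were lower. Rdh10 was at 23.4 and 25.1 UMIs per 10000 (24.3 ± 1.21) and Lrat at 13.7 and 14.7 (14.2 ± 0.710). Rrh had 4.68 and 5.14 (4.91 ± 0.324). Rdh11 had 0.466 and 0.456 (0.461 ± 0.00645) and ranks of 2576 and 2517, so that its mean level was 10.7 times below that of Rrh. The order of the 8 genes was the same in both mice, and the values of neighbours in the order did not overlap between mice. With 2 mice of 1 condition the order was not tested, and capture of different transcripts may differ.

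Together the 8 genes held 3.98% of the UMIs of an RPE cell in R1 and 4.62% in R2. Rgr alone was 47.1% and 50.8% of this sum. R2 was above R1 for 7 genes, by a ratio of 1.07 to 1.25, with Rgr at the top, and Rdh11 had a ratio of 0.980. None of the 8 passed a ratio of 1.5 between mice in either direction, where 0.974% of 10271 genes were more than 1.5-fold higher in R2 and 4.98% more than 1.5-fold lower. These ratios rest on 1 library a mouse and have no test.

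Of the 8 genes, 6 were found in nearly every RPE cell, and Rrh and Rdh11 in fewer. Rgr and Rdh5 had a UMI in every one of the 2723 and 2947 cells. Rlbp1 was missed in 0 and 1 cells, Rpe65 in 1 and 0, Rdh10 in 17 and 5 and Lrat in 39 and 52. Rrh was found in 87.6% and 84.8% of cells and Rdh11 in 27.1% and 24.2%. All 8 genes were seen together in 24.6% and 22.0% of cells, and the 7 genes other than Rdh11 in 86.2% and 83.6%. The last share was higher in deeper cells, going from 59.2% and 65.7% of cells under 5000 UMIs to 98.5% and 97.8% of cells with 10000 to 20000.

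At an equal 4000 UMIs per cell, to which 2353 and 2221 cells were thinned (370 and 726 shallower cells were left out), Rrh was found in 78.8% of cells of R1 (95% exact interval 77.1 to 80.5) and 77.9% of R2 (76.2 to 79.6). Counting noise around an equal level in all cells would have given 85.0% and 86.3%. Rdh11 was found in 15.0% and 14.7% of thinned cells, where an equal level would have given 16.8% and 18.2%. Lrat was found in 98.6% and 98.3%. The intervals cover counting error only. In cells with Ttr under 1% of UMIs, described further on, Rrh was found in 6 of 51 and 2 of 19 cells and Rdh11 in 3 and 2, at median depths of 3204 and 3836 UMIs. An Rgr UMI was found in 98.0% and 84.2% of those cells too, so a UMI alone hardly separates the groups for Rgr, whose level does. Ttr-high cells under 5000 UMIs, with median depths of 3640 and 3497, had Rrh in 64.8% and 69.0% and Rdh11 in 13.8% and 10.1%.

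**Figure D1:**
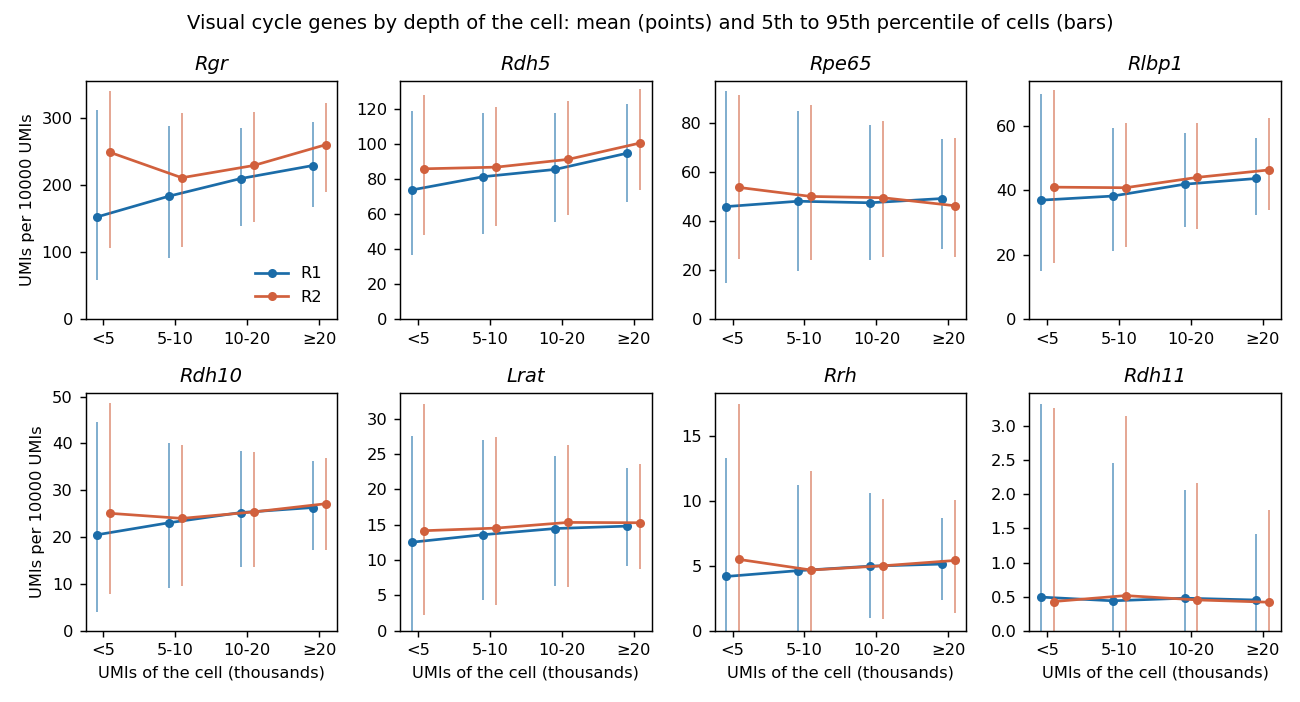
Level of each of the 8 genes (UMIs per 10000 UMIs) in RPE cells of R1 (blue) and R2 (orange) in 4 bins of UMIs per cell. Points are means over cells and bars run from the 5th to the 95th percentile of cells. Rgr goes from 152 in the shallowest to 229 in the deepest bin of R1, while cells under 5000 UMIs of R2 are at 249, and the bars shorten toward deeper cells.

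No difference between cells with more and with less RNA passed the test for these genes. UMIs were summed per mouse and depth bin (under 5000, 5000 to 10000, 10000 to 20000, and 20000 or more UMIs per cell, with 596, 1044, 989 and 94 cells in R1 and 1002, 752, 865 and 328 in R2), and cells of 10000 to 20000 were set against those under 5000 with edgeR's quasi-likelihood test and the mouse as a block. Of 11045 genes tested, 0% were called higher and 0.353% lower at an adjusted p under 0.05. None of the 8 genes was called, while 3 of them, Lrat, Rdh5 and Rlbp1, and 947 of all genes had an unadjusted p under 0.05. DESeq2 called none of the 8 either. The median log2 difference of the 8 was 0.14, beside 0.00079 over all genes tested.

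Rdh5 had summed levels of 73.8, 81.5, 86.0 and 94.8 UMIs per 10000 from the shallowest to the deepest bin in R1 and 85.6, 87.1, 91.4 and 101 in R2, so each deeper bin was above the one before it in both mice. The log2 difference of the tested bins was 0.14 (SE 0.0558, edgeR adjusted p = 0.487). Rlbp1 went from 36.7 to 42.2 in R1 and from 40.7 to 44.1 in R2 between the tested bins (log2 difference 0.14, SE 0.0588, adjusted p = 0.508). Lrat went from 12.6 to 14.6 and from 14.2 to 15.4 (0.15, SE 0.0689, adjusted p = 0.578). Rpe65 differed between the mice, at 45.6 and 47.2 in R1 but 53.5 and 49.2 in R2 (log2 difference −0.05, SE 0.0684).

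Rgr was the gene in which the mice differed most over depth. Its summed level was 154, 186, 211 and 229 UMIs per 10000 from shallow to deep cells in R1, and 247, 211, 230 and 261 in R2. The log2 difference of the tested bins was 0.15 (SE 0.0912, adjusted p = 0.662) over both mice, 0.50 in R1 alone and −0.13 in R2 alone. In R1, 61.7% of the cells under 5000 UMIs had an Rgr level under 150, against 8.68% in R2. These shallow cells also differed in mt- UMIs, which made up 2.39% of UMIs at the median in R1 against 1.33% in R2. Without the filter on low counts, the Rgr difference of 0.17 passed the test (adjusted p = 0.0206).

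Levels of the 2 opsin genes were lower in cells of higher mt- share, and those of Rpe65 and Lrat were not so in every bin. RPE cells were ordered by mt- share within each depth bin of each mouse and divided into 3 groups of equal size (lowest, middle and highest share). In R1 cells under 5000 UMIs, Rgr was at 227, 131 and 106 UMIs per 10000 from the lowest to the highest group, whose median mt- shares were 0.18%, 2.40% and 3.73%. In R1 cells of 10000 to 20000 UMIs it was at 224, 214 and 192. In R2 the corresponding values were 268, 258 and 216 in the shallow cells and 257, 232 and 198 in the deeper ones. Rgr and Rrh were lower at both steps in each of the 4 bins of each mouse.

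The ratio of the highest to the lowest group gives the size of this trend. It was 0.47 to 0.86 for Rgr over the 8 combinations of bin and mouse, and 0.49 to 0.86 for Rrh. Rdh5 had ratios of 0.81 to 0.95, Rlbp1 of 0.84 to 1.01 and Rdh10 of 0.79 to 1.05. Rpe65 had ratios of 0.79 to 1.04 and Lrat of 0.89 to 1.16, on both sides of 1, as were those of Rdh11 (0.48 to 1.26), which has few UMIs. Over 1220 genes of R1 and 1276 of R2 with at least 1 UMI per cell, the median ratio was 0.855 to 1.01. Over the 8 combinations, 3.61% to 18.3% of these genes had a lower ratio than Rgr, and 1.33% to 23.4% a lower one than Rrh. The mt- UMIs are part of the total by which a level is divided, at most 5% of it, and the part of other properties of these cells in the trend was not tested.

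**Figure D2:**
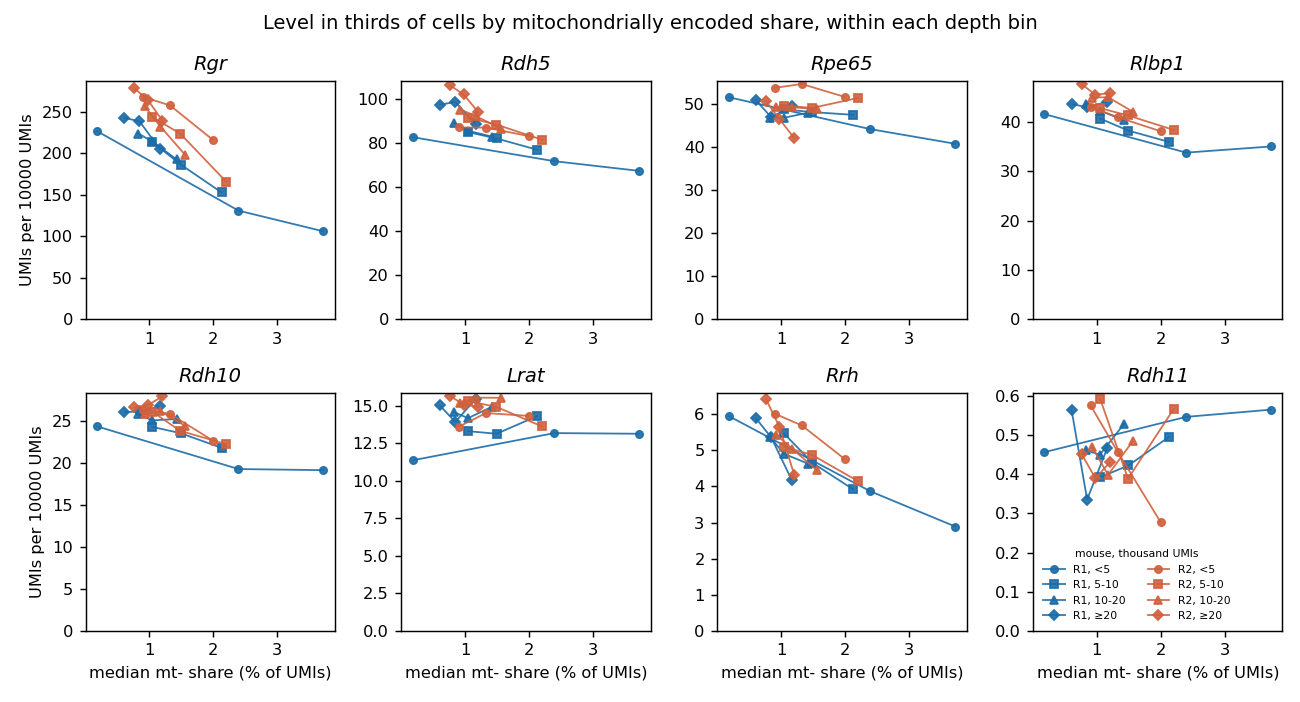
Level of each of the 8 genes (UMIs per 10000) against the median mt- share (percent of UMIs) in 3 groups of RPE cells ordered by mt- share. Lines join the 3 groups of a depth bin in R1 (blue) or R2 (orange), and marker shapes give the bin. All 8 lines of Rgr slope down, from 227 to 106 in the R1 cells under 5000 UMIs, while those of Lrat lie near level.

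The genes differed in how evenly they were spread over cells. The excess CV is the coefficient of variation of the level across cells after the part due to counting is removed. It was lowest for Rlbp1 (0.188 in both mice), and 0.220 and 0.197 for Rdh5, 0.240 and 0.209 for Rgr and 0.258 and 0.238 for Rdh10. Rpe65 had 0.337 and 0.317, and Lrat had 0.324 and 0.320. The value of Rrh was 0.472 and 0.481. That of Rdh11, at 1.10 and 1.28, rests on 1198 and 1340 UMIs in all. These values are over all depths, and the order differed in cells under 5000 UMIs. There Rpe65 had 0.442 in R1 and 0.294 in R2, Rgr 0.518 and 0.250 and Rdh10 0.465 and 0.364. Rlbp1 had 0.338 and 0.290 there, above Rdh5 at 0.283 and 0.216. In cells of 10000 to 20000 UMIs, Rpe65 had 0.331 and 0.329, above Rgr (0.194 and 0.209) and Rdh10 (0.229 and 0.249).

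Set beside genes of 30 to 300 UMIs per 10000 over all depths, Rpe65 lay above the median spread and Rlbp1 below it. Over the 22 genes of R1 and 20 of R2 with 30 to 300 UMIs per 10000, the median excess CV was 0.246 and 0.240. Rgr, Rdh5, Rpe65 and Rlbp1 are themselves among these genes. The range is wide, Rpe65 lies toward its lower end, and spread falls with level over all genes. The ranks given here thus depend on the range chosen. Of the genes, 16 of 22 and 15 of 20 had a lower value than Rpe65, with Rlbp1, Rdh5 and Rgr among them. In R1 and R2, 3 and 4 genes had a lower value than Rlbp1. In R1, 6 genes were below Rdh5 and 9 below Rgr, and in R2, 5 and 6. Between 3 and 30 UMIs per 10000 (375 and 366 genes), the median was 0.388 in each mouse, and 10.4% and 8.20% of genes were below Rdh10, 28.5% and 30.1% below Lrat and 81.1% and 83.3% below Rrh. Within cells of 10000 to 20000 UMIs, the 95th percentile of the level was 3.30 and 3.17 times the 5th for Rpe65, and 2.03 and 2.17 times for Rlbp1, counting noise included.

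**Figure D3:**
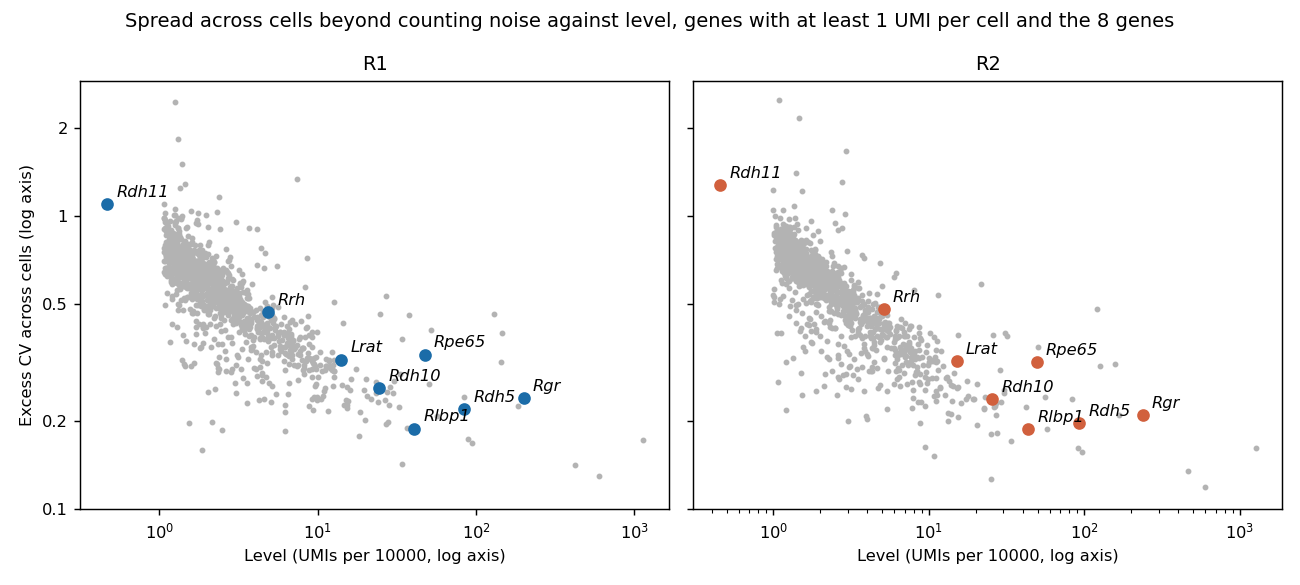
Excess CV across RPE cells (log axis) against level (UMIs per 10000, log axis) in R1 and R2. Grey points are other genes with at least 1 UMI per cell, and coloured points are the 8 genes. The spread falls with level over all genes, Rpe65 (0.337 and 0.317) lies above most genes of 30 to 300 UMIs per 10000 and Rlbp1 (0.188 in both) toward the lower edge.

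The genes of the cycle did not vary as 1 unit. Covariation is given as a noise-corrected correlation across cells, in which Poisson counting noise is removed from the variances, over 2723 cells of R1 and 2947 of R2. Cells of a mouse share a library, and their totals enter every level, so these values are descriptions. Over the 28 pairs the median was 0.0797 in R1 and 0.0533 in R2, and 0.135 and 0.128 over the 21 pairs without Rdh11, whose low counts leave its correlations imprecise. Over the 703891 pairs of 1187 genes with at least 1 UMI per cell, the median was 0.0036 and 0.0038 and the 95th percentile 0.121 and 0.105. The sign was the same in both mice for 22 of 28 pairs, and the median difference between mice was 0.0486.

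Over all cells, Rgr was part of most of the highest positive pairs. Rdh5 and Rgr had 0.370 in R1 and 0.438 in R2, the highest lower value of any pair. Rdh10 and Rgr had 0.346 and 0.313, Rgr and Rrh 0.263 and 0.303, Rdh5 and Rrh 0.246 and 0.266, and Rlbp1 and Rgr 0.239 and 0.293. These were the 5 pairs above 0.2 in both mice, 4 of them with Rgr, and each was positive in all 8 combinations of bin and mouse. All 5 genes of these pairs had a negative correlation with the mt- share (−0.55 and −0.58 for Rgr, −0.27 and −0.38 for Rdh5, −0.29 and −0.26 for Rlbp1, −0.20 and −0.26 for Rrh, −0.21 and −0.17 for Rdh10), so the values were also taken with that share held. Rdh5 with Rgr then had 0.27 and 0.29, Rdh10 with Rgr 0.28 and 0.26, Rgr with Rrh 0.19 and 0.20, and Rdh5 with Rrh 0.20 and 0.19. Rlbp1 with Rgr had 0.099 and 0.18, the largest move of these pairs in R1, while Rdh5 with Rgr moved most in R2. Without cells of 20000 or more UMIs, Rdh5 with Rgr in R2 had 0.275 and Rdh5 with Rrh 0.178, and with a mean share taken per depth bin Rlbp1 with Rgr in R1 had 0.159, so the count of 5 depends on these settings. With the mt- share held, only Rdh5 and Rdh10 with Rgr stayed above 0.2 in both mice. Rpe65 with Rdh5, at 0.37 and 0.21, was then above it too, so the lead of Rgr also depends on the setting.

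Rpe65 shared 2 of these partners, Rdh5 and Rrh. It had 0.364 and 0.198 with Rdh5 and 0.258 and 0.191 with Rrh, and these were 0.37 and 0.21, and 0.26 and 0.19, with the mt- share held. With Rgr it had 0.0888 and 0.0333, with Rdh10 −0.011 and 0.0043 and with Rlbp1 −0.0034 and −0.053. These pooled values cover unlike bins. Rpe65 with Rgr had 0.269 in R1 cells under 5000 UMIs, 0.207 in those of 5000 to 10000 and 0.172 in R2 cells of 20000 or more, and −0.041 to 0.037 in the other 5 bins. Rpe65 with Rlbp1 ran from −0.30 to 0.25 over the bins of R1 and from −0.049 to 0.030 over those of R2. Rpe65 and Lrat, the enzymes of consecutive steps, had −0.053 and −0.027 over all cells. Over the bins this pair ran from −0.135 to 0.039 in R1 and from −0.094 to 0.144 in R2, and was positive in 4 of 8. Lrat reached 0.162 and 0.128 with Rlbp1 and 0.139 and 0.0993 with Rdh5 and was within 0.1 of 0 with each other gene of the 8.

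**Figure D4:**
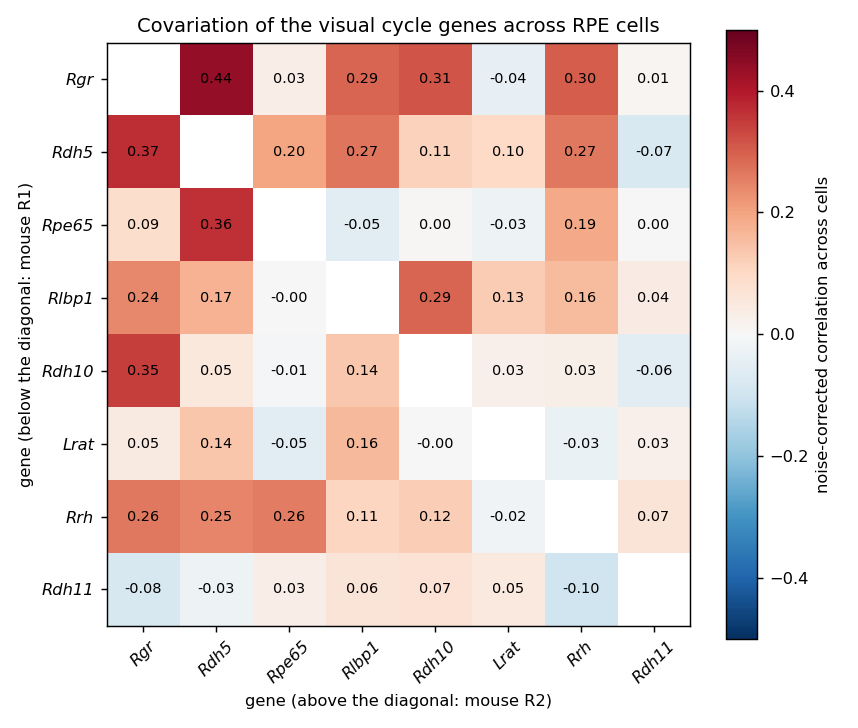
Noise-corrected correlation across RPE cells for each pair of the 8 genes, with R1 below the diagonal and R2 above it. Colour runs from blue (−0.5) to red (0.5). Rgr has 0.24 to 0.44 with Rdh5, Rdh10, Rlbp1 and Rrh, and the row and column of Lrat stay between −0.05 and 0.16.

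The same pattern can be read as levels. RPE cells of 10000 to 20000 UMIs were ordered by 1 gene and divided into 5 groups of 197 or 198 cells in R1 and 173 in R2. From the lowest to the highest group for Rgr (151 and 273 UMIs per 10000 in R1, 156 and 298 in R2), Rrh went from 4.32 to 5.51 in R1 and from 4.22 to 6.05 in R2. Rdh5 went from 80.8 to 93.2 and from 83.5 to 97.8, and Rdh10 from 22.6 to 27.8 and from 23.1 to 27.8. Rpe65 was at 46.9 and 48.2 in these groups of R1 and at 49.0 and 50.3 in those of R2, a ratio of 1.03 in each. Lrat had ratios of 1.01 and 0.898. The median depths of the lowest and highest group were 12207 and 13415 UMIs in R1 and 13082 and 13851 in R2.

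Across groups ordered by Rpe65, which spanned 26.7 to 73.8 UMIs per 10000 in R1 and 28.4 to 75.9 in R2, Rdh5 went from 74.96 to 96.2 and from 87.1 to 96.3 and Rrh from 4.19 to 5.78 and from 4.32 to 5.50. Rgr was at 206 and 213 in R1 and at 225 and 226 in R2. Across the 3.07-fold and 3.37-fold range of Lrat, each gene other than Rdh11 had a ratio of 0.95 to 1.08 between the outer groups.

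Among other genes with at least 1 UMI per cell, Clu, which encodes the secreted chaperone clusterin, was most like the sum of the 8. The measure was the correlation of Poisson residuals across cells, ranked by the lower of both mice, and it was 0.448 in R1 and 0.428 in R2 for Clu. Pon1 followed with 0.384 and 0.322, Ctsd with 0.352 and 0.320, Kcnj13 with 0.376 and 0.314 and Atp5b with 0.271 and 0.284. Clu was also first of 1180 genes for Rpe65 (0.321 and 0.284), Rdh5 (0.325 and 0.263), Rgr (0.40 and 0.37) and Rrh (0.259 and 0.235). For Lrat the first gene was Crim1, at 0.0808 and 0.0956. Rdh10 was most like Bsg (0.189 and 0.158), Rlbp1 most like Gpx4 (0.139 and 0.125) and Rdh11 most like Atp6v1d (0.0517 and 0.0351). Over all pairs of genes with at least 1 UMI per cell, the 95th percentile of this measure was 0.0515 and 0.0421. The values of Rdh11 lie near or under that, so they name no clear partner. Each first gene is the highest of 1180, so passing that percentile does not by itself make it a clear partner.

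Most other genes of retinoid handling were low in these cells. Of a list of 41 genes (carriers, other dehydrogenases and reductases, acyltransferases, retinoic acid enzymes, opsins), 40 were listed in the files, 5 had at least 1 UMI per 10000 in both mice and 18 had under 10 UMIs over both. Stra6, the receptor for retinol uptake from the blood, was at 8.20 and 7.80, and Degs1, a sphingolipid desaturase also described as a retinol isomerase, at 7.57 and 7.31. Abca4, a transporter of retinal conjugates, was at 1.87 and 1.62 and the reductase Dhrs3 at 1.25 and 1.33. Of the 17 list genes tested between deep and shallow cells, none was called.

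Of the 8 genes, 7 had far lower levels in the few cells that held little Ttr. Ttr was under 1% of UMIs in 51 cells of R1 and 19 of R2, called Ttr-low below. They held 3204 and 3836 UMIs at the median and are 70 cells in all, so their sums are small. In edgeR's test with the mouse as a block, 4.08% of 11558 genes were called higher and 6.34% lower in Ttr-low cells. That made 472 calls higher and 733 lower, and without TMM scaling 1028 and 353, with a median of all genes of 0.35 in place of −0.39 on the log2 scale. Of the 8 genes, 7 were called lower under either scaling and Rdh11 was not called. Over the 8 genes the median log2 difference was −4.69. Since Ttr chose the cells, its own difference is no result. The study had reported, in these same data, a small cell population with lower Ttr, Rpe65, Lrat, Rdh5, Rdh10, Rlbp1 and Rrh. The lower level of these genes here is therefore no independent result.

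The Ttr-low cells held 44 Rpe65 UMIs in R1 and 6 in R2, or 2.61 and 0.659 UMIs per 10000 beside 47.6 and 49.2 in Ttr-high cells (summed levels). Its log2 difference was −5.60 (SE 0.437, adjusted p = 8.77e-35), −5.21 relative to the median of all genes. With each mouse alone, as a value with no test, it was −4.88 in R1 and −7.16 in R2. Each edgeR SE, here and above, is the log2 difference divided by the square root of the F statistic. That statistic rests on a spread estimated with information shared across genes. The SE and p values of a gene therefore do not measure its own spread between the 2 mice. Lrat had 0.713 and 0.549 per 10000 beside 14.1 and 15.1 (−5.22, SE 0.432, adjusted p = 5.62e-31). Rgr, at 15.5 and 6.69 beside 200.1 and 237, had −5.12 (SE 0.488, adjusted p = 2.42e-23). DESeq2 gave the other called genes adjusted p values of at most 3.67e-11. For Rgr it gave −5.08 with a far weaker adjusted p of 0.0159, so the strength of that call depends on the tool. Rgr also differed between mice. Its summed level was 7.75% of the Ttr-high level in R1 and 2.82% in R2. With each mouse alone, again with no test, its log2 difference was −4.39 and −6.09. Unless stated, log2 differences between these groups follow TMM scaling, while such percentages do not. The values of Rgr for each mouse alone therefore lie further from 0 than its percentages give. Rdh10 fell by 4.79 on the log2 scale (SE 0.405, adjusted p = 1.26e-29) and Rrh fell by 4.60 (SE 0.475, adjusted p = 5.93e-20). Each of these genes was lower in the Ttr-low sum of both mice.

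Rdh5 and Rlbp1 had the largest shares of their Ttr-high level among the 7 called genes in both mice. Rdh5 was at 9.09 and 11.0 UMIs per 10000 in Ttr-low cells, 10.8% (95% counting interval 9.14 to 12.6) and 11.9% (9.66 to 14.4) of the Ttr-high level. Rlbp1 was at 5.05 and 4.28, which is 12.4% (9.90 to 15.3) and 9.79% (6.96 to 13.4). Rpe65 was at 5.49% (3.99 to 7.38) and 1.34% (0.491 to 2.91) and Lrat at 5.05% and 3.64%. Rdh10 was at 6.08% (3.93 to 8.97) and 6.01% (3.29 to 10.1). Rrh, on 7 and 2 UMIs, was at 8.55% (3.44 to 17.6) and 4.27% (0.517 to 15.4). The intervals of Rrh cover the shares of Rdh5 and Rlbp1, so their lead over Rrh is not settled. Free RNA is still in these counts. With 10% of each cell's UMIs subtracted at the mean profile of its mouse, the 7 genes were called lower as before. The fitted log2 differences were −7.01 for Rdh5 and −6.94 for Rlbp1. Ttr-high cells were 97.9% and 99.4% of the kept cells and dominate that profile. For genes already lower in Ttr-low cells, the subtraction could only widen the difference. A share of 10% is also more than these cells held of Ttr (5.31% and 3.16% of its Ttr-high level), Rpe65 and Lrat. The setting thus takes off too much, and the fitted values of −7.01 and −6.94 depend on it. How much of the level in Ttr-low cells is free RNA was not tested. Rdh5 fell by 3.90 (SE 0.406, adjusted p = 1.30e-19) and Rlbp1 fell by 3.92 (SE 0.385, adjusted p = 4.64e-22) on the log2 scale. Without TMM scaling these differences were −3.13 and −3.15, nearer to the shares above. All 19 Ttr-low cells of R2 and 80.4% of those of R1 held an Rdh5 UMI, and 68.4% and 64.7% an Rlbp1 UMI.

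Rdh11 had 5 and 2 UMIs in Ttr-low cells, 63.6% (20.7 to 148) and 48.4% (5.86 to 175) of its Ttr-high level, with a log2 difference of −1.53 (SE 0.719, adjusted p = 0.203). It did not pass the test here and passed without the mouse as a block (adjusted p = 0.0418). In simulated counts, the Ttr-low against Ttr-high test recovered only 29 of 200 genes given a log2 change of 2. The missing call for Rdh11 therefore does not show an equal level. Of the 17 list genes tested, Stra6 was called lower (log2 difference −4.165, adjusted p = 2.17e-21) and Dhrs7 higher (1.81, adjusted p = 0.0337).

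Other markers moved with this contrast. The 8 other RPE markers summed to 9.50 and 8.45 UMIs per 10000 in Ttr-low cells and 58.4 and 55.5 in Ttr-high cells, with 7 of 8 found and Best1 at 0. In Ttr-high cells Slc16a8 made up most of this sum, and it was at 1.43 and 0.659 beside 32.7 and 30.6. Stra6 and Ermn were also far lower. Otx2 fell less, at 2.32 and 1.87 beside 4.73 and 4.10, as did Mitf, at 0.535 and 0.549 beside 0.813 and 0.824. Trpm3 also kept more of its level than Slc16a8, Stra6 and Ermn. Serpinf1 went the other way within this list, at 2.08 and 1.43 beside 0.00820 and 0.0285. The Ttr-high values of single markers are means over cells. Genes of the dissociation response summed to 3.33 and 13.6 beside 2.22 and 5.20, with 7 and 6 of 7 found. The 6 genes by which the study marks a small Pax6 and Dkk3 positive pigment cell population summed to 256 and 180 beside 13.9 and 9.67, with all 6 found. At least 3 of these 6 were held by 92.2% and 84.2% of Ttr-low cells and by 55.4% and 38.7% of the deeper Ttr-high cells. The study picked these 6 from the same data, and also reported lower Ttr and visual cycle transcripts in that population. Neither their higher level nor the lower level of those visual cycle genes, in cells chosen by low Ttr, is therefore an independent result. Fibroblast markers summed to 35.3 and 22.0 (6 of 6 found) and microglial markers to 5.17 and 11.6 (6 and 7 of 8 found), while all endothelial and rod markers were at 0. Markers of Müller glia, retinal cells that are also known to hold Rlbp1, summed to 21.9 and 36.1 beside 11.8 and 11.3, with 4 of 7 found and Sox2, Kcnj10 and Gpr37 at 0 in Ttr-low cells, and no cell held 3 of them. At least 3 markers of fibroblasts or microglia were held by 4 cells of R1 and 3 of R2. These 7 cells held 0 UMIs of Rpe65 in 13437 and 8772 UMIs, which by a floor of 3 counts allows up to 2.23 and 3.42 per 10000, and 23 and 2 UMIs of Rgr. Without these cells the Ttr-low level of Rpe65 was 2.84 and 0.729 and that of Rdh5 9.55 and 11.4. That of Rgr was then 15.4 and 7.17, and the same 7 genes were called lower. The part of these cell types in the differences was not tested further.

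**Figure D5:**
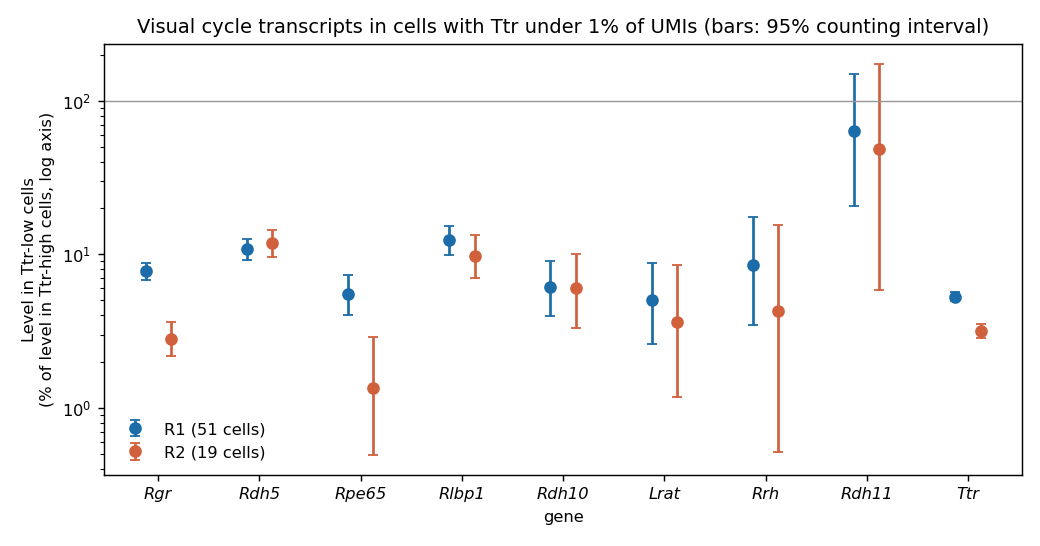
Level in Ttr-low cells as a percent of the level in Ttr-high cells (log axis) for the 8 genes and Ttr in R1 (blue, 51 cells) and R2 (orange, 19 cells). Bars are 95% counting intervals. Rdh5 and Rlbp1 lie near 10% in both mice, the share of Ttr (5.31% and 3.16%) was set by the choice of cells, and the intervals of Rdh11 reach past 100%.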

How the data were processed

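UMI counts per gene and cell had been deposited by the authors as 10x matrices, made per the labels with bcl2fastq 2.20.0.422 and Cell Ranger 1.2.0 on mm10, with no normalization. The labels and the study name different 10x chemistries, and barcodes hold 14 bases. The study also removed free RNA and doublets, which the deposited counts still hold. No doublet caller was run here, and cells of 20000 or more UMIs, which may hold doublets, were left out as an alternative. Cells were kept at 500 or more genes and up to 5% mt- UMIs. Levels, excess CV and noise-corrected correlations were computed in Python 3.11.15 with mean counts proportional to cell totals, and summed counts were tested with edgeR 4.0.16 (quasi-likelihood, TMM, filterByExpr, mouse as block, Benjamini-Hochberg at 0.05) and DESeq2 1.42.0 as alternative. The bins and cell groups of a mouse come from 1 library, which pairs them. Depth per library was 26034378 and 29732969 UMIs. Simulated counts served as a check of both edgeR comparisons. Of 200 genes given a log2 change of 1, deep against shallow recovered 137 and Ttr-low against Ttr-high 3. At a log2 change of 2 they recovered 187 and 29. With no change given, neither called a gene. The median error of the log2 difference was −0.0182 to 0.0293 for depth and −0.47 to −0.311 for Ttr. Fitted Ttr differences thus ran too low there, and most changes of this size were missed. Gene positions are from GENCODE M21 and upstream sequence from RefSeq. The named genes are the 8 members, list genes with at least 1 UMI per 10000 in both mice and those tested and called, and the most alike genes. Members and lists were chosen with earlier results of these data known. One list gene that the rule names is not reported here.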

Additional observations from a re-analysis of the deposited data

How the results depend on the processing

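Between deep and shallow RPE cells 39 genes were called, and the count moved to 15 with DESeq2, 106 without the filter on low counts and 59 with bins drawn without Ttr and the 8 genes. It was 0 in edgeR without the mouse as replicate block (476 genes at an unadjusted p under 0.05) and 0 for cells of 5000 to 10000 against under 5000 UMIs (513 genes), where Rgr had a log2 difference of −0.012 and Rrh of −0.065. With each mouse alone, which leaves no test, this difference ran from −0.15 to 0.092 for Rpe65, −0.089 to 0.014 for Rdh11, −0.13 to 0.50 for Rgr and −0.17 to 0.28 for Rrh. Between Ttr-low and Ttr-high cells, 2208 genes were called without the replicate block in place of 1205, and Rdh11 then passed the test (adjusted p = 0.0418, edgeR). The block changed no other call among the 8 genes. DESeq2 called 490 genes higher and 428 lower there. With 10% of UMIs subtracted as free RNA, fitted log2 differences ran from −1.70 for Rdh11 to −21.0 for Rgr, and they depend on the prior count where a sum reached 0. The median correlation over the 28 pairs in R2 was 0.0237 as a correlation of Poisson residuals. Levels moved by more than the spread between mice in 15 of 80 recomputed values, all with totals taken without Ttr, and excess CVs in 29 of 96. Leaving out cells with markers of another type, and holding the mt- share, were chosen for the correlations after the data were seen. The causes were not tested. The 70 Ttr-low cells and their low depth limit what that comparison can call.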
